A study of Mus musculus with 8 samples.

Results

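The complement and coagulation genes C3, C4b, Cfd, Cd55, F5 and Tfpi2 were examined in the ascending aorta of Fbn1mgR/mgR mice, a model of Marfan syndrome in which both groups carry the allele that lowers expression of the microfibril gene Fbn1. The genes were found by matching the Ensembl identifiers of the deposited table to mouse symbols, and all 6 were among its 1329 genes. One group was given DT-061, a small molecule activator of protein phosphatase 2A, by mouth at 5 mg/kg, with 2 doses each day for 4 weeks and the first at an age of 5 weeks, and the other received the vehicle solution on that schedule. Each group had 4 libraries of poly-A RNA, but the labels do not tie each library to its own mouse, so p-values measure the spread between these libraries, which may be technical. The deposited table held genes significant between these groups by a test that the sources used here do not name. Every test below therefore describes genes already selected on the same comparison.

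Complement is a cascade of plasma proteins in which the classical, lectin and alternative pathways meet at cleavage of C3, and C4 carries the classical and lectin pathways to that point. Factor D, encoded by Cfd, starts the alternative pathway by cutting factor B, and CD55 on cell surfaces speeds the decay of the C3-cleaving enzymes. In coagulation, factor V is the cofactor with which factor Xa turns prothrombin into thrombin, and TFPI-2 is a Kunitz-type inhibitor of serine proteases that is held in the extracellular matrix. The liver makes most circulating complement, and vessel wall cells, fibroblasts, fat and macrophages also make some components.

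Depth estimated from the steps between low FPKM values was 14100000 to 22200000 fragments per library. Of 9 smooth muscle markers 7 were in the table, and their summed level was 8764 to 24364 FPKM in the 8 libraries. That level shows smooth muscle RNA in every library, but the count of markers found reflects selection on the comparison, not the tissue. None of the 8 endothelial and 5 mesothelial markers was in the table, and these were not analysed here. DT-061 library 3 and vehicle library 4 stood apart from their groups in earlier results of these data, and values are given with and without them where results rest on them.

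All 6 genes were lower with DT-061 by limma at an adjusted p under 0.05, and for each of them every DT-061 library was below every vehicle library. Of all 1329 genes, 65.0% were called lower and 30.4% higher by limma, and 48.2% were lower with no overlap between groups. That balance depended on the scaling: 434 genes were higher and 301 lower after median rescaling, and 394 higher and 209 lower after quantile normalization. The table was chosen on this comparison, so nothing is read from these counts. The median log2 change of the 6 genes was -1.38, against -0.58 over all 1329 genes and -0.87 over the 894 genes that were lower, where a log2 change is the difference of the group means of log2(FPKM + 1), negative when lower with DT-061. That scale compresses changes at low levels. In bulk tissue, fewer cells of a type and less RNA per cell cannot be told apart.

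C3, the component on which all complement pathways converge, lies on GRCm38 chromosome 17 from 57203970 to 57228136 on the minus strand (ENSMUSG00000024164). It had 113, 129, 50.0 and 139 FPKM in DT-061 libraries 1 to 4 and 533, 246, 368 and 154 FPKM in vehicle libraries 1 to 4. The groups were separated only narrowly, since vehicle library 4 was 1.11 times the highest DT-061 library. Means were 108 ± 39.9 against 325 ± 164 FPKM (SD, n = 4), a 3.02-fold lower level. The log2 change was -1.54 ± 0.45 (SE; limma adjusted p = 0.019). Without DT-061 library 3 and vehicle library 4 the level was 3.01-fold lower.

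C4b encodes complement C4, whose cleaved form is part of the classical and lectin C3 convertase, and lies on chromosome 17 from 34728380 to 34743882 on the minus strand (ENSMUSG00000073418). It had 52.8, 57.1, 14.3 and 53.1 FPKM in DT-061 libraries 1 to 4 and 241, 158, 218 and 118 FPKM in vehicle libraries 1 to 4. The DT-061 libraries other than library 3 lay close together, and the lowest vehicle library was 2.07 times the highest DT-061 library. The log2 change was -2.15 ± 0.45 (SE, n = 4 per group; limma adjusted p = 0.016), the most negative of the 6 genes, and 3.24% of the table had a more negative one. Means were 44.3 ± 20.1 against 184 ± 56.1 FPKM (SD, n = 4), a 4.15-fold lower level, or 3.79-fold without the 2 libraries that stood apart. C4b has a near-identical neighbour, C4a, so its level is uncertain where reads were split between them.

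Cfd, also known as adipsin, is on chromosome 10 from 79890853 to 79892655 on the plus strand (ENSMUSG00000061780) and had the highest level per length of the 6 genes in every library. It had 326, 184, 72.4 and 330 FPKM in DT-061 libraries 1 to 4 and 784, 596, 1391 and 489 FPKM in vehicle libraries 1 to 4. Both groups were widely spread, with vehicle library 3 far above the other vehicle libraries. Means were 228 ± 124 against 815 ± 403 FPKM (SD, n = 4), so Cfd was 3.57-fold lower, or 3.30-fold without the 2 libraries that stood apart. The log2 change was -1.94 ± 0.53 (SE; limma adjusted p = 0.018). Adipocytes are a main source of adipsin. Of 14 adipocyte markers only the resistin gene Retn was in the table, with 5.81, 3.03, 1.69 and 5.07 FPKM in DT-061 libraries 1 to 4 and 23.6, 19.9, 25.1 and 8.70 in vehicle libraries 1 to 4. Retn was thus lower with DT-061, as Cfd was, but the table holds only genes selected for a difference between the groups. The other adipocyte markers have no values here. The summed adipocyte list is Retn alone, and the part of fat tissue in the result was not tested.

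Cd55, which encodes decay-accelerating factor, a membrane inhibitor of complement, is on chromosome 1 from 130439027 to 130462744 on the minus strand (ENSMUSG00000026399). It had 6.76, 6.92, 2.40 and 6.94 FPKM in DT-061 libraries 1 to 4 and 15.2, 10.9, 12.9 and 17.2 FPKM in vehicle libraries 1 to 4. Vehicle library 4 was the highest of all 8 libraries for Cd55, whereas it was the lowest vehicle library for each of the other 5 genes. Means were 5.75 ± 2.24 against 14.1 ± 2.74 FPKM (SD, n = 4), a 2.44-fold lower level, and the log2 change was -1.22 ± 0.30 (SE; limma adjusted p = 0.017). Without the 2 libraries that stood apart it was 1.89-fold lower. Its log2 change was -0.92 without DT-061 library 3. The paralog Cd55b may share reads, and 102 exonic bases lie under the antisense gene Gm16083. Whether counting used the strand is not given, so those reads cannot be assigned.

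**Figure D1:**
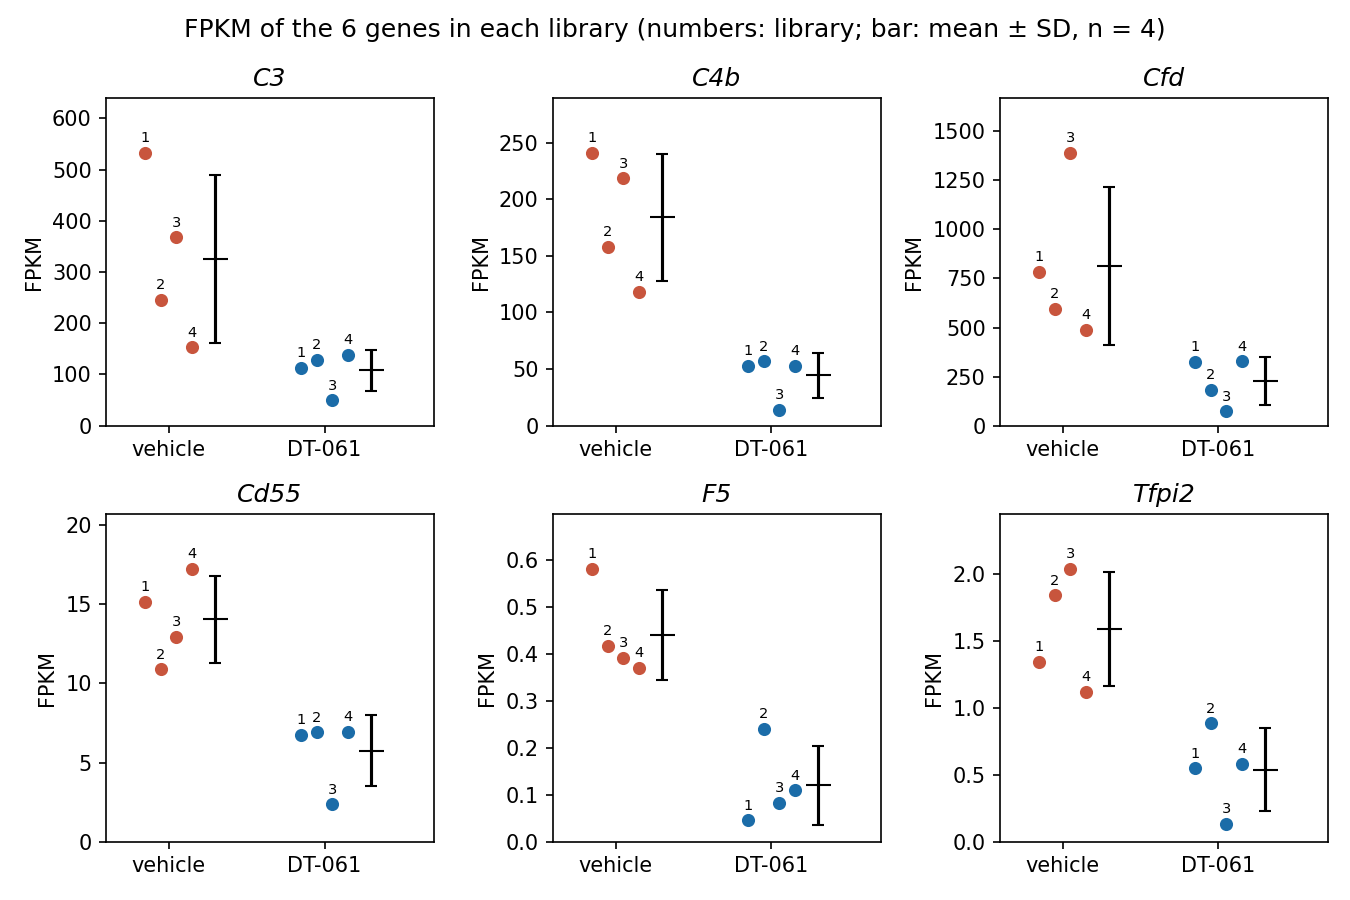
Level of each gene in FPKM (linear axis from 0) in the 4 vehicle (red) and 4 DT-061 (blue) libraries, numbered by library, with the group mean ± SD as a bar. In all 6 panels the DT-061 points lie below the vehicle points, with the smallest gap for C3 (1.11 times), and DT-061 library 3 is the lowest for every gene except F5.

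F5, the gene of coagulation factor V, is on chromosome 1 from 164151838 to 164220277 on the plus strand (ENSMUSG00000026579) and had the lowest level of the 6. It had 0.0469, 0.241, 0.0835 and 0.110 FPKM in DT-061 libraries 1 to 4 and 0.582, 0.418, 0.393 and 0.372 FPKM in vehicle libraries 1 to 4. DT-061 library 2 was the nearest to the vehicle group, and library 3 did not stand apart here. With an exonic length of 7430 bases and the estimated depths, these values were within 0.0524 of whole fragments in all 8 libraries. They correspond to 5, 28, 9 and 12 fragments with DT-061 and to 70, 69, 51 and 39 with vehicle. F5 thus rested on 54 fragments over the DT-061 group and 229 over the vehicle group. Means were 0.120 ± 0.0846 against 0.441 ± 0.0958 FPKM (SD, n = 4), a 3.67-fold lower level. On the log2(FPKM + 1) scale the change was only -0.36 ± 0.08 (SE; limma adjusted p = 0.016), and with a pseudocount of 0.1 it was -1.35. The lincRNA gene Gm16548 on the opposite strand shares 262 exonic bases with F5.

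Tfpi2, the protease inhibitor gene, is on chromosome 6 from 3962595 to 3988919 on the minus strand (ENSMUSG00000029664). It had 0.551, 0.886, 0.136 and 0.582 FPKM in DT-061 libraries 1 to 4 and 1.34, 1.84, 2.04 and 1.12 FPKM in vehicle libraries 1 to 4. Vehicle library 4 was 1.27 times the highest DT-061 library. At an exonic length of 1747 bases these levels are about 3.46 to 24.2 fragments with DT-061 and 27.7 to 71.4 with vehicle. They were not whole numbers at that length, so these fragment counts are approximate. Means were 0.539 ± 0.308 against 1.59 ± 0.426 FPKM (SD, n = 4), a 2.94-fold lower level, and the log2 change was -0.76 ± 0.20 (SE; limma adjusted p = 0.018). With a pseudocount of 0.1 it was -1.54.

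For each of the 6 genes the two-sided exact permutation test over the 8 libraries gave p = 0.0286, the smallest that 4 against 4 can give. That value is fixed wherever the groups do not overlap, as for 78.3% of the table's genes, so it adds nothing to the lack of overlap. Per length, the order of the mean levels was Cfd, C3, C4b, Cd55, Tfpi2 and F5 in both groups. In the scatter of level against change, C3, C4b and Cfd are among the more abundant genes of the table: 96.7%, 94.4% and 98.6% of its genes had a lower mean FPKM. F5 and Tfpi2 are at the other end, with 4.36% and 17.9% of genes lower.

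**Figure D2:**
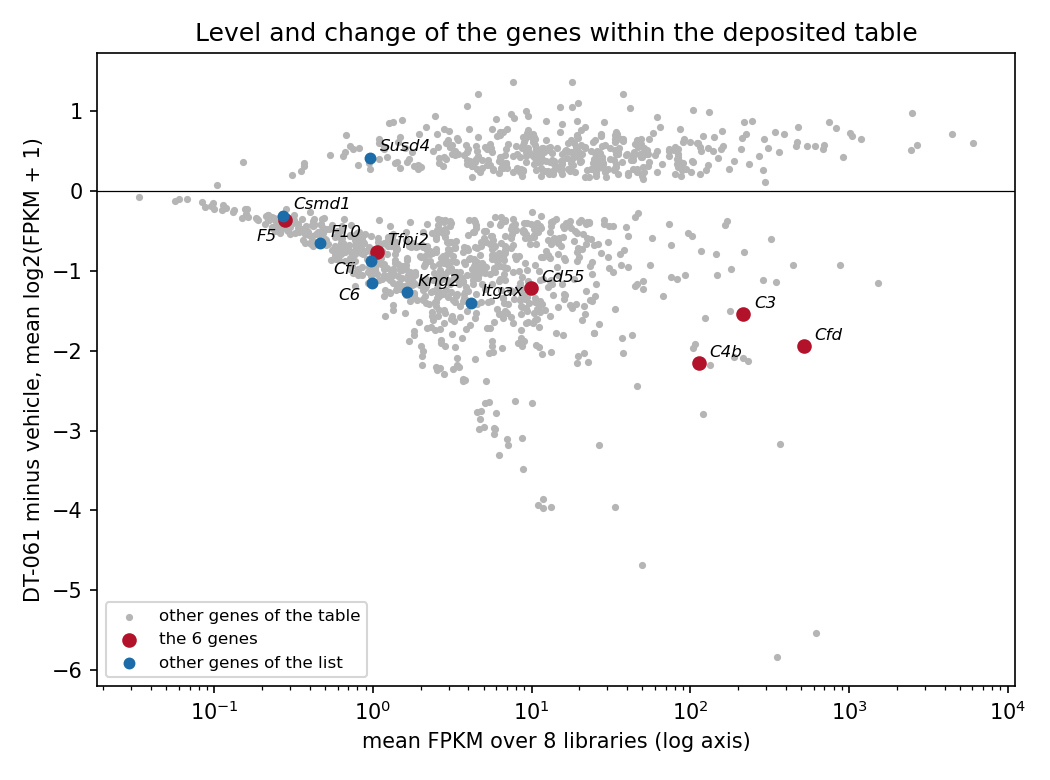
Mean FPKM over 8 libraries (log axis) against the log2 change for the 1329 genes of the table (grey), with the 6 genes in red and the other 7 genes of the complement, coagulation and fibrinolysis list in blue. C4b (-2.15) and Cfd (-1.94) are far below 0 at high levels, F5 (-0.36) is near 0 at the low end where the scale compresses changes, and Susd4 (0.42) is the one labelled gene above 0.

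Ratios of FPKM within a library are not changed by a single scaling factor for that library, although quantile normalization can change them. The ratio of C4b to C3 FPKM was 0.465, 0.443, 0.285 and 0.383 in DT-061 libraries 1 to 4 and 0.452, 0.643, 0.593 and 0.770 in vehicle libraries 1 to 4. The groups overlapped through vehicle library 1, and the means were 0.394 ± 0.0803 and 0.615 ± 0.132 (SD, n = 4). The ratio of C3 to Cd55, an inhibitor of its cleavage, was 16.8, 18.6, 20.8 and 20.0 in DT-061 libraries 1 to 4, a narrow range. In vehicle libraries 1 to 4 it was 35.2, 22.6, 28.5 and 8.92, so vehicle library 4 was below all DT-061 libraries and the other vehicle libraries were above them. The ratio of Cfd to C3 was 1.43 to 2.87 with DT-061 and 1.47 to 3.78 with vehicle, and the groups overlapped.

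A wider list of 106 complement, coagulation and fibrinolysis genes had 13 in the table, the 6 genes and 7 others. By limma 12 of the 13 fell and 1 rose, and none of the 13 had overlapping groups. In the deposited table as a whole, 65% of genes were called lower and 30.4% higher by limma. Groups did not overlap, in either direction, for 78.3% of its genes. The median log2 change of the 13 was -1.15. Of the complement list 9 of 51 were in the table, 8 lower and 1 higher, and of the coagulation and fibrinolysis list 4 of 55, all lower.

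Among complement components and regulators, C6, a part of the membrane attack complex, had 0.0810 to 0.389 FPKM with DT-061 and 0.728 to 3.29 with vehicle and had a log2 change of -1.15 ± 0.26 (limma adjusted p = 0.016; SE with 4 libraries in each group). Cfi, the gene of factor I, the protease that inactivates C3b and C4b, had 0.0997 to 0.557 against 0.649 to 2.38 FPKM and fell by 0.88 ± 0.23 (log2). Itgax, the alpha chain of complement receptor 4 and a marker of dendritic cells and some macrophages, had 0.375 to 2.65 against 3.47 to 8.39 FPKM and fell by 1.40 ± 0.37 (log2). Csmd1, a large membrane protein with complement control repeats, fell by 0.31 ± 0.10 (log2) from a low level of 0.220 to 0.627 FPKM with vehicle, and missed the threshold when DT-061 library 3 or vehicle library 2 was left out (limma adjusted p = 0.055 and 0.050). Susd4, a membrane inhibitor of complement, had 1.23, 1.09, 1.38 and 1.25 FPKM in DT-061 libraries 1 to 4 and 0.765, 0.573, 0.746 and 0.616 in vehicle libraries 1 to 4. It was the single gene of the list that rose, 1.84-fold, by 0.42 ± 0.12 on the log2 scale (SE; limma adjusted p = 0.018). DT-061 library 3, the lowest library for C3, C4b, Cfd, Cd55 and Tfpi2, was the highest for Susd4.

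Among coagulation genes, F10, which encodes factor X, the protease that works with factor V, had 0.0551 to 0.190 FPKM with DT-061 and 0.526 to 1.63 with vehicle and fell by 0.65 ± 0.18 (log2, SE; limma adjusted p = 0.018). Kng2, one of a pair of similar mouse kininogen genes that may share reads, had 0.0601 to 1.18 against 1.60 to 4.60 FPKM and fell by 1.27 ± 0.32 (log2). F5 and F10 were thus both low in level and lower with DT-061. As ratios of mean FPKM, C6, F10, Kng2 and Cfi were 9.38-, 6.71-, 5.11- and 4.32-fold lower, against 4.15-fold for C4b. Itgax and Csmd1 were 3.36- and 3.05-fold lower. The log2(FPKM + 1) changes of such low genes are compressed, so they cannot be ranked against those of C4b and Cfd.

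The size of these changes depended on the scaling. After rescaling of the libraries to an equal median over the table, which moved the median log2 change of all genes from -0.58 to -0.13, all 6 genes remained lower but only C4b (-1.32) and Cfd (-1.09) stayed past the limma threshold. C3, Cd55, F5 and Tfpi2 were then at -0.69, -0.48, -0.20 and -0.39 (limma adjusted p = 0.069, 0.18, 0.069 and 0.11). With quantile normalization, which moved the median of all genes to 0.05, C3, C4b and Cfd stayed called at -1.43, -1.99 and -1.81. Cd55 was at -0.70 (limma adjusted p = 0.053), and F5 and Tfpi2 turned to higher at 0.15 and 0.07 (limma adjusted p = 0.26 and 0.77). Of the other list genes, C6, Cfi, Itgax, F10 and Kng2 lost their calls with quantile normalization (limma adjusted p of 0.056 to 0.77) and Csmd1 turned to higher, at 0.18 (limma adjusted p = 0.046), while Susd4 was at 0.83 and 1.13 under the rescaling and the quantile normalization. Both scalings assume a balance of rises and falls that a selected table need not have.

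**Figure D3:**
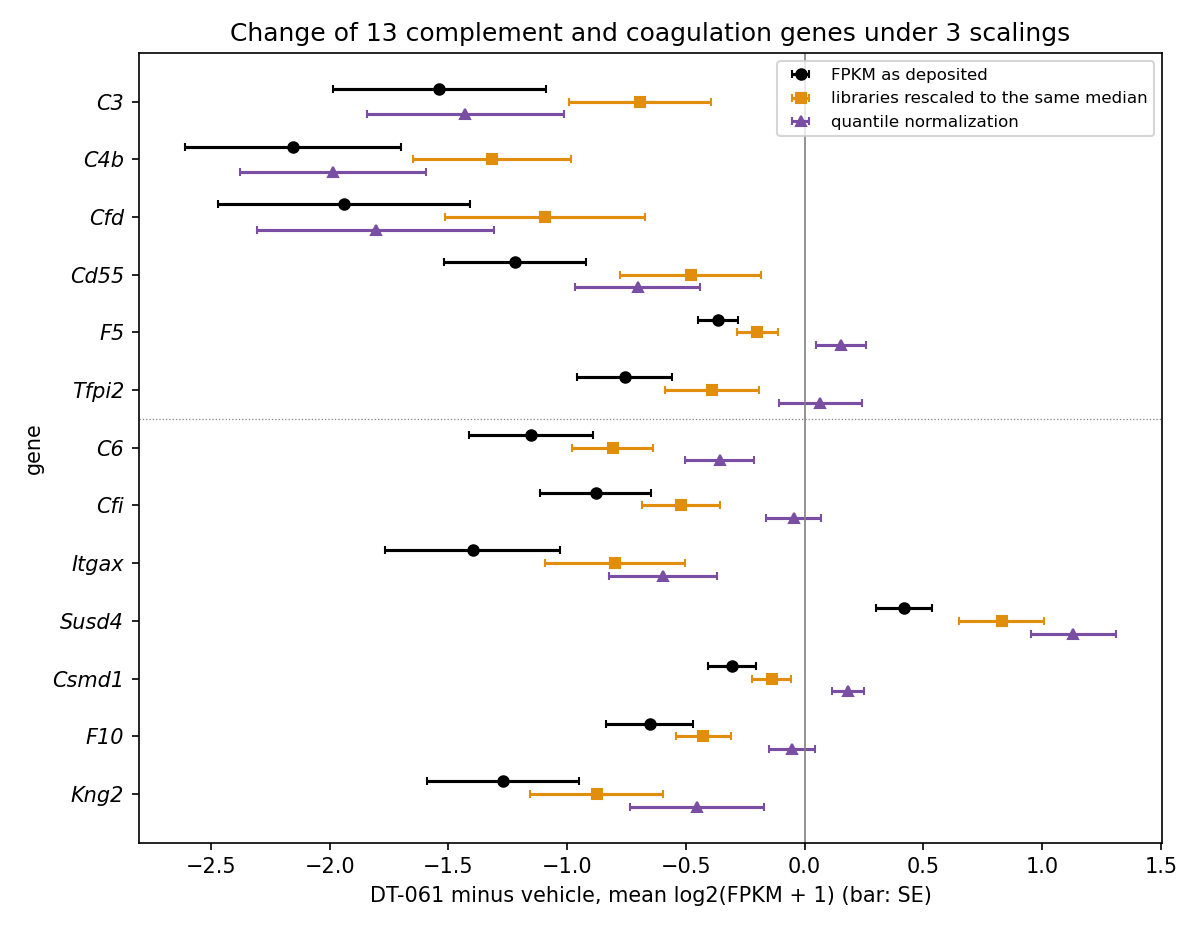
Log2 change with its SE for the 6 genes (above the dotted line) and the other 7 genes of the list, from FPKM as deposited (circles), after median rescaling (squares) and after quantile normalization (triangles). C4b is at -2.15, -1.32 and -1.99 and Cfd likewise stays below 0 throughout, whereas F5, Tfpi2 and Csmd1 turn to higher with quantile normalization.

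The order of the libraries was shared in part. DT-061 library 3 was the lowest of all 8 for C3, C4b, Cfd, Cd55 and Tfpi2, and DT-061 library 1 was the lowest for F5. Vehicle library 1 was the highest for C3, C4b and F5, vehicle library 3 for Cfd and Tfpi2, and vehicle library 4 for Cd55. Likeness of profiles was measured as the Euclidean distance between log2(FPKM + 1) values of the 8 libraries, each gene standardised, so that a smaller value means a more similar profile. Because every gene was selected for a difference between the groups, the profiles share that step. C3 and C4b were the closest pair of the 6 genes, at 0.793, and Cfd and F5 the farthest, at 2.15. The median distance from C3 to the genes of the table was 1.65, but C4b was only the 133rd nearest gene to C3, and C3 the 76th nearest to C4b.

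The nearest profiles to C3 were those of the dicarboxylate transporter gene Slc13a3 (0.259), Slfn2 (0.378) and the interferon-inducible gene Ifi203 (0.401). Those nearest to C4b were Cbfb (0.386), Rai14 (0.412) and the adhesion receptor gene Adgrg3 (0.418). Cfd was nearest to the acid phosphatase gene Acp5 (0.516), the semaphorin gene Sema7a (0.687) and the matrix proteoglycan gene Lum (0.733). Cd55 was nearest to Uap1 (0.571), Sema6b (0.695) and the kinase gene Mapk11 (0.702). F5 was nearest to Susd6 (0.481), the argininosuccinate synthase gene Ass1 (0.590) and the interferon receptor gene Ifnar1 (0.611). Tfpi2 was nearest to the BMP-binding protein gene Bmper (0.500), Tpp2 (0.595) and Doc2b (0.657). All 18 of these genes were lower with DT-061 by limma, as were 65% of the table. That direction follows from picking profiles near those of lower genes.

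**Figure D4:**
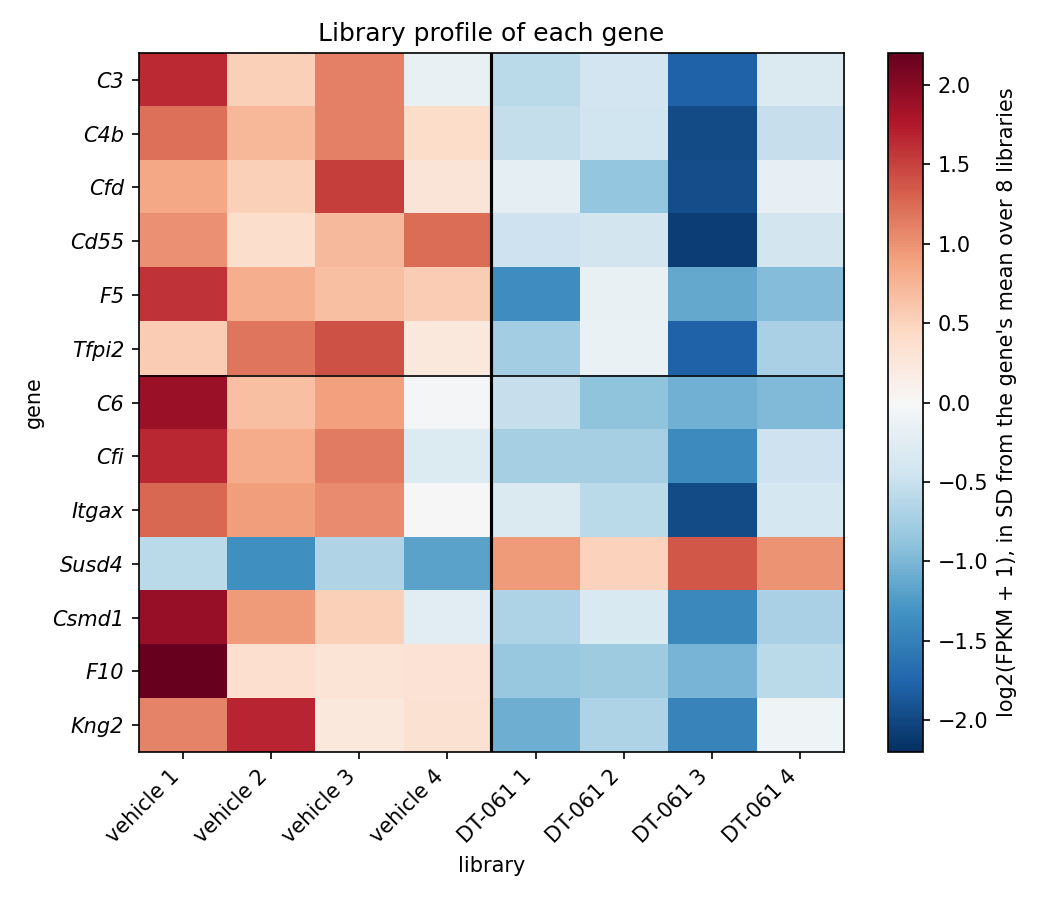
Standardised log2(FPKM + 1) of the 13 list genes (rows, the 6 genes above the line) in the 8 libraries (columns), in SD from each gene's mean, red for higher and blue for lower. DT-061 library 3 is the darkest blue for C3, C4b, Cfd, Cd55 and Tfpi2, and vehicle library 4 is pale for C3 but red for Cd55.

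Markers of other cell types found in the table differ between the groups because its genes were selected on this comparison. Markers absent from it have no values here, so each sum covers selected genes only. Of the whole table, 65% of genes were called lower and 30.4% higher by limma. Of 18 macrophage and monocyte markers 5 were in the table, all lower, with summed levels of 117 to 305 FPKM with DT-061 and 339 to 1594 with vehicle. Vehicle library 4 was the one at 339, against at least 943 in the other vehicle libraries. These 5 markers were Mpeg1, Ly6c2, Plac8, Ctss and Cd74. Most of each sum was Cd74, with 103 to 232 FPKM with DT-061 and 256 to 1218 with vehicle, so the sum mainly follows that gene. T and NK cell markers (10 of 12 in the table, 9 lower by limma) were Cd3d, Cd3e, Cd3g, Cd2, Cd4, Lck, Trbc2, Nkg7, Prf1 and Klrd1. They summed to 2.38 to 8.48 FPKM with DT-061, 26.3 to 80.3 in vehicle libraries 1 to 3 and 6.34 in vehicle library 4. B and plasma cell markers (4 of 9, Jchain, Igha, Ighm and Sdc1) summed to 20.0 to 51.4 against 88.2 to 2276 FPKM. Igha was the largest of them in every vehicle library, with 2.80 to 16.7 FPKM with DT-061 and 42.7 to 1325 with vehicle. Neutrophil markers (3 of 11, S100a8, S100a9 and Csf3r) summed to 0.569 to 2.46 against 1.46 to 24.8 FPKM. S100a9 was listed at 0 in DT-061 library 3 and vehicle library 4. Fibroblast markers (3 of 10, Lum, Cthrc1 and Sfrp4) summed to 84.8 to 155 against 221 to 361 FPKM. By that sum vehicle library 4 was close to the other vehicle libraries, as it was for Cthrc1 and Sfrp4. For Lum, most of the sum, vehicle library 4 had 132 FPKM. DT-061 libraries 1, 2 and 4 had 113 to 124 for Lum, and vehicle libraries 1 to 3 had 169 to 260. The single hepatocyte marker of 10 in the table, Apoa1, had 0.0618 to 0.133 against 0.411 to 0.664 FPKM. Smooth muscle markers in the table were Myh11, Acta2, Tagln, Cnn1, Myl9, Lmod1 and Tpm2. Their sum was higher, at 16094 to 24364 FPKM with DT-061 and 8764 to 13913 with vehicle, and the highest library was DT-061 library 3. The part of these cell types in the changes of the 6 genes was not tested. With both DT-061 library 3 and vehicle library 4 left out, all 6 genes stayed lower by limma (adjusted p of 0.0019 to 0.014). Both libraries were picked from these same data because they stood apart. Leaving them out narrows the spread by that choice, so the smaller p-values are not added support.

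**Figure D5:**
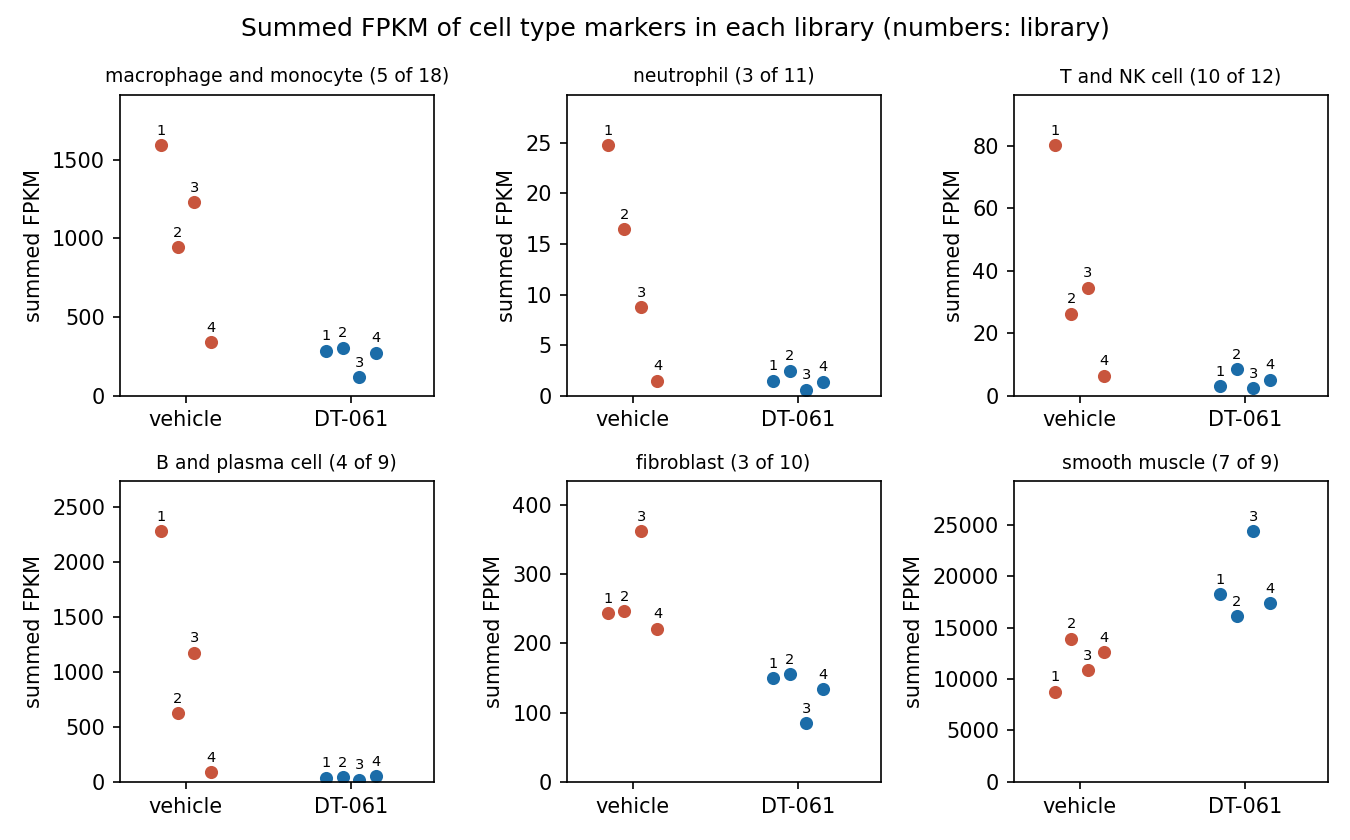
Summed FPKM (linear axis from 0) of the markers of 6 cell types in each vehicle (red) and DT-061 (blue) library, numbered by library; titles give the markers in the table of those listed. Vehicle library 4 sits near the DT-061 libraries for macrophage (339), neutrophil (1.46), T and NK cell (6.34) and B and plasma cell markers (88.2), but with the vehicle libraries for fibroblast markers (221).

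Promoter windows, from 250 bases before to 50 bases after an annotated start, were taken from RefSeq (GRCm38.p6) because all 6 genes were lower with DT-061 in this comparison. They were found for 5 of the 6 genes. The windows of C3, Cfd and Cd55 are shown because these were the most abundant genes with a window and because Cd55 differed from the others in vehicle library 4. Capitals mark every match on either strand to TATAAA (the TATA box), TTNNGNAA (a loose form of the C/EBP site), TTCNNNGAA (STAT sites), a loose form of the NF-kB site (GGG and CC with any 5 bases between) or the interferon response element (GAAA and GAAA with any 2 bases between). Matches may overlap each other, and matches that run together form 1 stretch of capitals.
C3, chr17:57228087-57228386, minus strand: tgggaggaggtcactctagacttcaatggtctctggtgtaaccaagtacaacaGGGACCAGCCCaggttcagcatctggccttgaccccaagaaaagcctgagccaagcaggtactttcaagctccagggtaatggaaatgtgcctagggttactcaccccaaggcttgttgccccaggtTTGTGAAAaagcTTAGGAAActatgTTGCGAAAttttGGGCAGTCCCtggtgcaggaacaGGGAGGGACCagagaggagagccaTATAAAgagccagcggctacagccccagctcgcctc
Cfd, chr10:79890603-79890902, plus strand: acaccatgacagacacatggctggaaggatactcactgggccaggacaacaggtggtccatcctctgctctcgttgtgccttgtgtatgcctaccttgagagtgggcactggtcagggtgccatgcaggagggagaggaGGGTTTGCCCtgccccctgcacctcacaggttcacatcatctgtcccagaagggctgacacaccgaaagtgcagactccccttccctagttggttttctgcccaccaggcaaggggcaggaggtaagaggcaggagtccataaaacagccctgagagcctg
Cd55, chr1:130462695-130462994, minus strand: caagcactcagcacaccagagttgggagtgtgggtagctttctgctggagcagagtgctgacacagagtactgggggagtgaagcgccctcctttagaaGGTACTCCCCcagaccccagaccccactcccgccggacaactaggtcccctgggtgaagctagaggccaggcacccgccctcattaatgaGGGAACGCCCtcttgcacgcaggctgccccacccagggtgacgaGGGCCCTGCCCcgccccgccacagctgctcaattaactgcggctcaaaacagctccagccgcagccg

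C3 was the only one of these 3 genes, and of all 5 with a window, to match TATAAA, and its window held 3 matches of TTNNGNAA that began 70, 58 and 45 bases before the annotated start. The TATAAA began 14 bases after that start. TTNNGNAA was also present in the windows at 2 of the 3 annotated starts of Tfpi2, where the windows overlap. The NF-kB form matched at 4 positions each for C3 and Cd55 and at 1 position in every other window of the 5 genes. Some of these positions overlap, at 197 and 196 bases before the start for C3 and at 17 and 16 for Cd55. TTCNNNGAA and the interferon response element matched in none of the windows. The shares that follow count windows with at least 1 match, so they give no background for 4 positions. Of all 32851 RefSeq windows of this length, 13.6% held TATAAA, 40.7% TTNNGNAA, 8.30% TTCNNNGAA, 50.8% the NF-kB form and 3.44% the interferon response element. Among the 1276 windows of genes in the deposited table the shares were 9.17%, 37.3%, 7.52%, 67.2% and 7.37% in the same order. A match describes letters in the window and is not evidence of binding.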

How the data were processed

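Poly-A RNA of 8 ascending aorta libraries, 4 per group, was measured. The deposited FPKM (fragments scaled to gene length and library total) were made by the authors. The submitters' processing notes name mm10, featureCounts 1.5.0-p3, HISAT2 2.0.5 and StringTie 1.3.3b, with no roles. How the 1329 genes were chosen, the fragment total and the strand setting are not stated in those sources.

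Symbols matched 1328 identifiers, and positions and exonic lengths came from GENCODE M21 (GRCm38). Depth was estimated as the step at which low values (under about 30 fragments) times exonic length were nearest to whole. At that step 21.6% to 41.8% of values were within 0.05 of whole, against 8.96% to 9.79% at the median step.

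limma 3.58.1 (R 4.3.3; trend and robust options) was run on log2(FPKM + 1), with treatment as the only term and Benjamini-Hochberg adjustment over 1329 genes at 0.05, after it was tested on simulated data. Fold changes are ratios of mean FPKM. Named genes are the 6 genes, all list genes in the table, the 3 nearest profiles of each gene and the markers. The members and lists were chosen with earlier results of these data known.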

Additional observations from a re-analysis of the deposited data

Results flagged for a closer look

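Within a group of 4, a library was singled out where its gap to the nearest other library, as a share of the group's range, exceeded Dixon's 95% critical value, which chance passes in about 1 in 20 groups. Of 26 groups of list genes, 3 did. DT-061 library 3 was low for C4b, at 14.3 FPKM, with the rest of its group at 52.8 to 57.1, and for Cd55, at 2.40, with the rest at 6.76 to 6.94. Vehicle library 1 was high for F10, at 1.63 FPKM, where the rest of the vehicle group had 0.526 to 0.558.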

How the results depend on the processing

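With 1 library left out at a time, all 6 genes stayed called lower by limma, with log2 changes of -1.85 to -1.21 for C3, -2.35 to -1.69 for C4b, -2.19 to -1.47 for Cfd, -1.33 to -0.92 for Cd55, -0.41 to -0.32 for F5 and -0.86 to -0.62 for Tfpi2. The counts over the table then ranged from 254 (without vehicle library 3) to 351 higher and from 652 to 881 lower. Calls also held with a pseudocount of 0.1 and without the trend and robust options. They held with both DT-061 library 3 and vehicle library 4 left out, a pair picked from these same data. A minimum mean FPKM of 1 removed F5, C6, Cfi, F10, Csmd1 and Susd4. The genes left were 5 of the 6 and 7 of the list, and all of these stayed lower. With the median rescaling, 301 table genes, 7 list genes and 2 of the 6 genes were lower, and C3 (-0.69), Cd55 (-0.48), F5 (-0.20) and Tfpi2 (-0.39) lost their calls. With quantile normalization the counts were 209, 3 and 3, Cd55 lost its call (-0.70), and F5 (0.15) and Tfpi2 (0.067) reversed. The cause was not tested. Deviations of same-numbered libraries from their group means had correlations over genes of 0.18, -0.11, -0.05 and -0.47. Differently numbered libraries reached 0.45 and -0.48, so these values cannot decide whether the numbers mark a pairing. With the replicate number as a block, 204 genes were higher and 630 lower, the 6 genes stayed lower (limma adjusted p of 0.0460 to 0.0464), and Susd4 lost its call (0.058).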
